A study of Mus musculus with 2 samples.

Results

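Cells counted here as alveolar type 1 (AT1) members were taken from single-cell RNA-seq of tumor endothelial cell (TEC) preparations of control and Dnmt1iECKO mice. A member had at least 500 detected genes, at most 10% of its UMIs from mitochondrial genes, no UMI of Ptprc (the leukocyte antigen CD45), at least 4 of the 7 genes Ager, Rtkn2, Cldn18, Akap5, Aqp5, Clic3 and Igfbp2, and at most 0.5% of its UMIs from Sftpc, the surfactant gene of type 2 (AT2) cells. The rule found 570 members among 18823 cell barcodes, 434 of them in the control and 136 in the Dnmt1iECKO library. The name was only partly borne out by the cells themselves. Of the members, 94 control and 44 Dnmt1iECKO cells had a high AT1 content, whereas 320 and 82 held more than a small share of endothelial transcripts, mostly with few AT1 transcripts, and 20 and 10 fell into neither kind.

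Each library held sorted CD31+CD45- cells pooled from the YUMMER1.7 melanomas of 3 female mice aged 8 to 10 weeks. YUMMER1.7 is a mouse melanoma line with a high mutational burden. Dnmt1iECKO mice carried Cdh5CreERT2, Dnmt1fl/fl and ZsGreenlsl/lsl, so that tamoxifen deletes Dnmt1, the maintenance DNA methyltransferase, in cells that use the endothelial Cdh5 promoter. Epithelial cells are not a target of this Cre, and a CD31 sort is not meant to collect them. The labels gave the control mice as C57BL/6 and the tumors as subcutaneous, whereas the study's methods gave control mice with the Cre driver and the ZsGreen reporter and lung tumors raised through the tail vein. With 1 library per condition there was no replicate, so no test was made, and every interval below is a 95% interval that covers counting error only.

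AT1 cells are the broad, flat cells that cover most of the gas-exchange surface of the lung. They share a fused basement membrane with capillary endothelial cells, above all with the aerocytes, the capillary cells specialised for gas exchange. They are known for aquaporin 5, the receptor for advanced glycation end products (Ager), caveolae and tight claudin-18 junctions, for Vegfa that acts on the neighbouring capillary, and for their descent from AT2 cells through a keratin 8-positive transitional state after injury.

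The libraries held 9301 and 9522 barcodes, with a median of 8904 and 8762 UMIs. After the filters on genes and mitochondrial UMIs, 8021 and 8102 cells were left. A Ptprc UMI was found in 18.3% of the control and 58.4% of the Dnmt1iECKO cells that passed, so that 6555 and 3373 cells remained as the pool from which members were drawn. The libraries shared 29 barcodes, carried by 3 control members and 1 Dnmt1iECKO member, and no shared barcode was a member in both libraries.

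Endothelial content split the members. The rule genes made up a median of 0.284% of a control member's UMIs and 0.493% of a Dnmt1iECKO member's. A UMI of Cdh5, the endothelial cadherin, was found in 315 of 434 control members (72.6%, 68.1 to 76.7, exact Clopper-Pearson interval) and in 86 of 136 Dnmt1iECKO members (63.2%, 54.5 to 71.3), at median depths of 10700 and 12764 UMIs. T cells, which should lack Cdh5, had a Cdh5 UMI in 14.2% and 6.66%, at median depths of 9455 and 9520.5. With each cell thinned to 2000 UMIs, which left out 47 and 19 shallower members, the share of members was 61.2% of 387 and 59.0% of 117, compared with 8.65% and 3.67% of thinned T cells. Most members therefore held far more endothelial RNA than T cells of the same libraries did.

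Members were accordingly divided by the share of UMIs from a list of 14 endothelial markers, at a limit of 0.2%, and by the share from the 7 rule genes, at a limit of 1%. Both limits were set after the data had been seen. AT1-rich members had at most 0.2% endothelial and at least 1% rule-gene UMIs. Endothelial-bearing members exceeded 0.2% endothelial UMIs, whatever their rule genes. The remaining members had little of either.

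**Figure D1:**
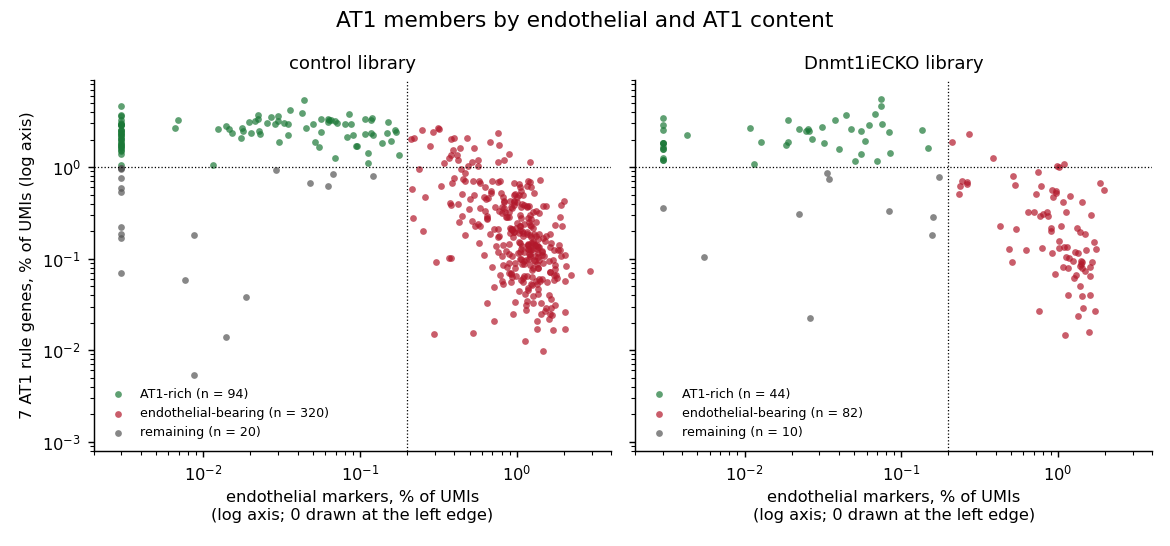
Each point is 1 AT1 member. The horizontal axis gives the share of its UMIs from 14 endothelial markers and the vertical axis that from the 7 rule genes, both on log axes, with the 0.2% and 1% limits dotted. The 94 control and 44 Dnmt1iECKO AT1-rich members form a band at the upper left, and the endothelial-bearing members, right of the 0.2% limit, have a median rule-gene share of 0.178% and 0.171%.

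Members below 0.2% endothelial UMIs had higher median rule-gene shares than those above it. In control the median was 2.35% in 77 members below 0.05% endothelial UMIs and 2.94% in 21 members from 0.05 to 0.1%. It was 2.31% in 16 members from 0.1 to 0.2% and 0.946% in 27 members from 0.2 to 0.4%. Above that it was 0.448% in 64 members from 0.4 to 0.8%, 0.142% in 192 from 0.8 to 1.6% and 0.0773% in 37 above 1.6%. The same medians in the Dnmt1iECKO library were 1.85%, 2.42% and 0.787% in 36, 13 and 5 members below the 0.2% limit. Above it they were 0.696%, 0.295%, 0.121% and 0.126% in 8, 15, 50 and 9 members. The order was thus not the same in every step. In this library the medians on either side of the limit, 0.787% and 0.696%, differed little. These are descriptions of 2 shares of the same UMI totals, which are not independent of each other.

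AT1-rich members had a median of 2.55% (control) and 2.12% (Dnmt1iECKO) of their UMIs from the rule genes, compared with 0.178% and 0.171% in endothelial-bearing members, a ratio of 14.3 and 12.5. They were the shallower cells, with a median of 4142.5 and 5412 UMIs and 1782.5 and 2187.5 detected genes, compared with 11996 and 14210 UMIs in endothelial-bearing members. Endothelial-bearing members supplied 80.7% of all UMIs of the control members and 65.2% of those of the Dnmt1iECKO members. AT1-rich members supplied only 12.6% and 19.7%, so most UMIs summed over all members came from endothelial-bearing droplets. Single genes could differ from this. Of the Igfbp2 UMIs of all members, 2298 in control and 429 in Dnmt1iECKO, AT1-rich members held 1286 and 281.

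The AT1-rich cells fitted their name on genes that the rule did not use. The list of 17 other AT1 markers made up a median of 3.45% of a control AT1-rich cell's UMIs (range 1.35 to 4.70) and 3.07% of a Dnmt1iECKO cell's (1.73 to 5.06). AT2 cells, defined by Sftpc above 0.5% and at least 3 of 8 other AT2 markers, had 0.129% and 0.132%, with control values that reached 0.9%. The lowest AT1-rich cell of the control library therefore stood above the highest control AT2 cell, while in the Dnmt1iECKO library the AT2 range ended at 1.85% and overlapped that of AT1-rich cells. Aerocytes, which share Emp2, Clic5 and Cav1 with AT1 cells, had medians of 0.703% and 0.631%. Endothelial-bearing members had 0.638% and 0.694%, close to the aerocyte values. The highest aerocyte had 2.44% and 1.87%, and the highest endothelial-bearing member 3.91% and 3.59%. Both ranges overlapped that of AT1-rich cells in each library.

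Genes that led the AT1-rich cells over all other cells of the same library, besides those of the rule, were Col4a3 and Col4a4 (chains of the collagen IV network of the alveolar basement membrane), Cyp2b10, Sec14l3, Ndnf and Sema3e (a semaphorin that acts on endothelial plexin D1). Col4a3 had 1590 CPM in control AT1-rich cells, 37.3 in AT2 cells and 1.68 in aerocytes. Hopx, the homeodomain protein that marks AT1 cells, had 6960, 142 and 553 CPM. Emp2, by contrast, had 5240, 604 and 3280 CPM, so it separated AT1-rich cells from AT2 cells more than from aerocytes. These values describe how the cells differ and are no test, since the cells were chosen by their expression.

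Single markers are given here with their counting limits. Ager, Cldn18 and Igfbp2 are genes of the rule that chose these cells, so their detection is a description and no support for the name. Ager and Cldn18 were found in all 94 control and 44 Dnmt1iECKO AT1-rich cells. Igfbp2 was found in 78.7% (69.1 to 86.5) and 61.4%. Epcam, the epithelial adhesion molecule, was found in 45.7% and 52.3% of AT1-rich cells and in 11.2% of control endothelial-bearing members, compared with 7.57% of control T cells. Cdh5 was found in 11.7% and 6.82% of AT1-rich cells, at median depths of 4142.5 and 5412 UMIs. It was found in 94.1% and 95.1% of endothelial-bearing members, and in 14.2% and 6.66% of T cells, which were deeper than AT1-rich cells. Thinned to 2000 UMIs, the Cdh5 share of AT1-rich cells was 3.17% of 63 and 3.33% of 30, compared with 8.65% and 3.67% of T cells. The limit on endothelial UMIs was used to choose AT1-rich cells, so their low Cdh5 is a description and no test.

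Endothelial-bearing members expressed Cdh5 at 1160 CPM in control and 1200 CPM in Dnmt1iECKO, compared with 1560 CPM in control aerocytes and 26.0 and 8.81 CPM in AT1-rich cells. They carried markers of both capillary types. After thinning, at least 2 aerocyte markers were found in 42.0% (36.4 to 47.8) of the control and 48.7% (37.2 to 60.3) of the Dnmt1iECKO endothelial-bearing members, compared with 6.35% and 3.33% of AT1-rich members and 3.85% and 1.45% of T cells. Among members with a Cdh5 UMI, 41.0% and 45.9% had at least 2 aerocyte markers, and 84.5% and 72.9% had at least 2 general capillary markers. In other Ptprc-negative cells with Cdh5 the corresponding shares were 46.7% and 38.2% for aerocyte and 76.3% and 77.3% for general capillary markers. Whether these droplets held 2 cells, a cell with free RNA or a cell that expresses both programs was not tested. Scrublet scores, cut at 0.4% of cells per 1000, marked 14 of the control (3.23%) and 4 of the Dnmt1iECKO members (2.94%). Among all cells that passed the filters they marked 257 of 8021 and 263 of 8102, numbers set by the cut.

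The remaining members were a mixed group. The deepest control droplet of this kind held 113523 UMIs, was led by Tpt1, S100a6 and Lgals1 and had 0.00529% of its UMIs from rule genes. Another of 72201 UMIs had 53.9% of them from airway epithelial markers, foremost Scgb1a1, the secretoglobin of club cells. Further droplets were led by Mgp or by Cbr2 and Sec14l3. In the Dnmt1iECKO library, the droplet of 126028 UMIs was led by Lgals1, S100a6 and Vim, that of 76586 UMIs by Vim, Lgals1 and Actb, and one of 31835 UMIs had 3.71% of its UMIs from AT2 genes. These 20 and 10 droplets held 6.66% and 15.0% of the UMIs of the members, and none of them was given a cell type name here.

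The cells just inside and just outside the rule had low rule-gene shares, and most of them held Cdh5. The 124 control cells with exactly 4 rule genes had a median of 0.101% of UMIs from the rule genes and a Cdh5 UMI in 87.9%, and the 154 control cells with 3 rule genes had 0.0565% and 88.3%. The 110 control cells with all 7 had 2.03% and 56.4%. In the Dnmt1iECKO library the 34 cells with 4 rule genes had 0.124% and a Cdh5 UMI in 79.4%, and the 45 cells with 3 had 0.0574% and 68.9%. By contrast, among cells with at least 4 rule genes the limit on Sftpc fell in a gap. The highest Sftpc share inside it was 0.366% in control and 0.455% in Dnmt1iECKO, and the lowest outside it was 0.799% and 0.668%. AT2 cells with any number of rule genes went down to 0.569% and 0.556%. Among AT1-rich cells, 8 control and 8 Dnmt1iECKO cells had 1 to 1.5% rule-gene UMIs. Just below that limit stood 11 and 3 cells with 0.5 to 1%, and 29 and 6 cells were over it but carried more than 0.2% endothelial UMIs.

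The share of AT1 members among Ptprc-negative cells was 6.62% (6.03 to 7.25) in control and 4.03% (3.39 to 4.75) in Dnmt1iECKO, a log2 ratio of −0.72. AT1-rich members made up 1.43% (1.16 to 1.75) and 1.30% (0.949 to 1.75), a log2 ratio of −0.14, with intervals that overlap. Endothelial-bearing members made up 4.88% (4.37 to 5.43) and 2.43% (1.94 to 3.01). The lower share in the Dnmt1iECKO library was thus that of the endothelial-bearing members. AT2 cells made up 2.15% and 1.54%, and aerocytes 31.8% and 21.4%.

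**Figure D2:**
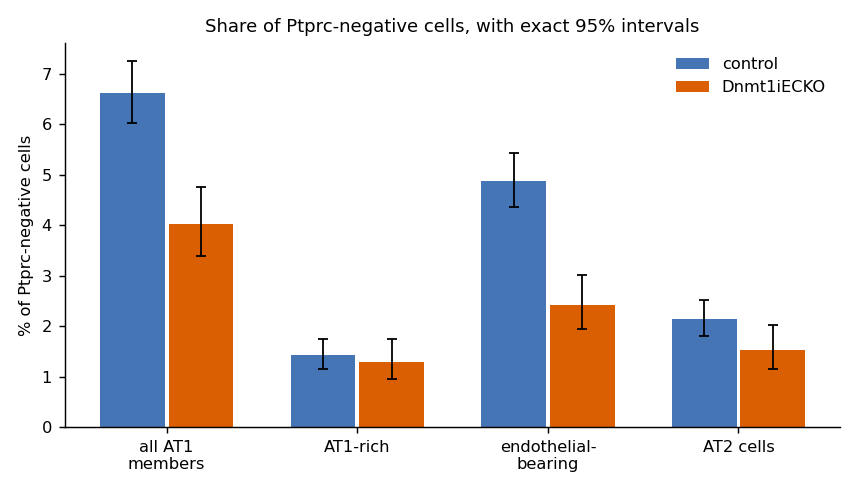
Bars give the share of Ptprc-negative cells, in percent, for all AT1 members, AT1-rich members, endothelial-bearing members and AT2 cells in the control and Dnmt1iECKO libraries, and error bars the exact 95% Clopper-Pearson interval. The AT1-rich bars, at 1.43% and 1.30%, have overlapping intervals, whereas those of the endothelial-bearing members, at 4.88% and 2.43%, do not.

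Of AT1 members and AT2 cells together, AT1 members made up 75.5% (71.7 to 78.9) in control and 72.3% (65.4 to 78.6) in Dnmt1iECKO. Most of these members were endothelial-bearing, 320 of 434 and 82 of 136, so these are not shares of the alveolar epithelium. When only AT1-rich members were counted against AT2 cells, the shares were 40.0% (33.7 to 46.6) and 45.8% (35.6 to 56.3). Neither pair was separated beyond counting error. The share of all cells that passed the filters was 5.41% and 1.68%, which also takes in the larger number of Ptprc-positive cells in the Dnmt1iECKO library. All of these shares are set by the sort and by the other cells in the pool, and a change in AT1 number cannot be told apart from a change in what was sorted.

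Levels were compared between the libraries by summing UMIs over cells. In AT1-rich members, 2325 genes had at least 100 UMIs in both libraries together. Of these, 23 genes (0.989%) had at least 2-fold more CPM in Dnmt1iECKO and 15 genes (0.645%) at most 0.5-fold, with a median log2 ratio of −0.03 over all 2325 genes. In either direction and at any size, 46.8% of the 2325 genes were higher and 53.2% lower. Over all members, 172 of 8688 genes (1.98%) were at least 2-fold higher and 92 (1.06%) at least 2-fold lower. Single cells carried many of these values. Without each gene's highest cell in each library, 10 of the 23 higher and 14 of the 15 lower genes of AT1-rich members were still past 2-fold, as were 75 of 172 and 84 of 92 of all members. One cell is a larger part of the smaller Dnmt1iECKO group, 44 cells compared with 94, so this step can by itself lower ratios. Recounted over all genes in this way, AT1-rich members had 14 genes higher and 30 lower. The step therefore does not show that lower genes were the firmer ones.

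The 7 rule genes were lower or nearly equal in Dnmt1iECKO AT1-rich members, and only Igfbp2 was past 2-fold. Since their sum was used to choose these cells, their levels are given as a description. Ager (ENSMUSG00000015452) lies on the forward strand of chromosome 17 (GRCm38) at 34597862 to 34600936. It had 13800 CPM in control and 11800 in Dnmt1iECKO, a log2 ratio of −0.22 (−0.27 to −0.17, exact conditional interval). Rtkn2 had 2610 and 2480 CPM, and Akap5, an anchor of protein kinase A, had 1630 and 1600 CPM. Aqp5, the water channel of the alveolus, had 1960 and 1530 CPM, a log2 ratio of −0.36 (−0.49 to −0.23). Clic3, a chloride intracellular channel protein, had 1220 and 890 CPM, a log2 ratio of −0.45 (−0.62 to −0.28).

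Igfbp2 (ENSMUSG00000039323, chromosome 1, 72824503 to 72852474, forward strand), a secreted binding protein of insulin-like growth factors that marks mature AT1 cells, had 1670 CPM in control and 619 CPM in Dnmt1iECKO AT1-rich members. The log2 ratio was −1.43 (−1.62 to −1.24), and as a gene of the rule it is described here and not tested. It was −1.44 without the highest cell of each library and between −1.59 and −1.14 over 11 alternatives. The median AT1-rich cell had 861 CPM in control, with quartiles of 261 and 2070, and 502 CPM in Dnmt1iECKO, with quartiles of 0 and 804. Cells of both libraries therefore overlapped widely. An Igfbp2 UMI was found in 73.0% of thinned control and 46.7% of thinned Dnmt1iECKO cells. In endothelial-bearing members Igfbp2 had 194 and 82.6 CPM, a log2 ratio of −1.23, and in the remaining members 133 and 69.4 CPM. The ratio was also below 0 in other cells at far lower levels, −2.41 (−2.90 to −1.93) in T cells with 83 and 65 UMIs, −1.43 (−2.95 to −0.18) in aerocytes with 40 and 6 UMIs, and −0.85 (−1.09 to −0.61) in all other cells that passed the filters. AT2 cells, with 46 and 33 UMIs, had 10.1 and 16.8 CPM, a log2 ratio of 0.73 (0.04 to 1.41).

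**Figure D3:**
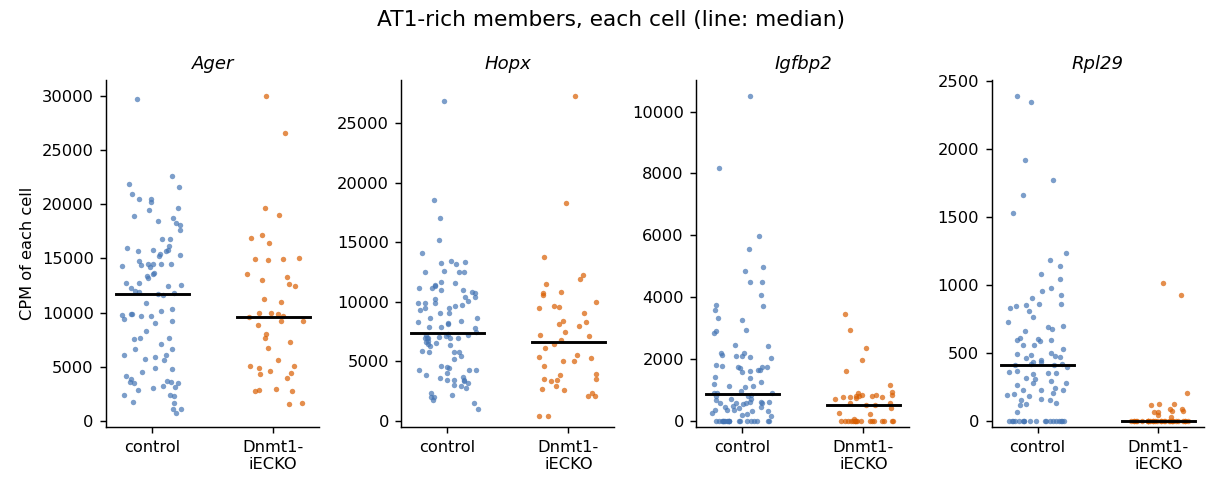
Each point is 1 AT1-rich cell, with the CPM of Ager, Hopx, Igfbp2 and Rpl29 on linear vertical axes for the control and Dnmt1iECKO libraries, and the line is the median. Igfbp2 has a median of 861 and 502 CPM with wide overlap, and the median of Rpl29 is 407 CPM in control and 0 in Dnmt1iECKO.

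The AT1 markers outside the rule were at nearly equal levels in both libraries. Of 17 genes, 10 were higher and 7 lower in Dnmt1iECKO AT1-rich members, none past 2-fold, with a median log2 ratio of 0.01 beside −0.03 for all genes. Their sum was 34300 CPM in control and 33300 in Dnmt1iECKO. Hopx had 6960 and 6710 CPM, a log2 ratio of −0.05 (−0.12 to 0.01). Emp2, a tetraspan membrane protein, had 5240 and 5270 CPM. Clic5, a chloride intracellular channel protein tied to the actin cortex, had 4300 and 3520 CPM, a log2 ratio of −0.29 (−0.37 to −0.20), and stayed between −0.33 and −0.18 over 11 alternatives. Pdpn, the membrane mucin podoplanin, had 761 and 701 CPM, with an interval of −0.32 to 0.08.

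Of the keratins, Krt7 had 1320 and 879 CPM, a log2 ratio of −0.58 (−0.75 to −0.41), and Krt8 had 403 and 295 CPM, a log2 ratio of −0.45 (−0.75 to −0.15). Both were lower under all 11 alternatives. Krt19, with 545 and 485 CPM, had an interval of −0.41 to 0.07. Krt8 also marks the transitional cells between AT2 and AT1, and 4 of the 8 measured genes of the transitional list were higher and 4 lower, with sums of 5580 and 5510 CPM. In endothelial-bearing members Krt7 and Krt8 had ratios of the opposite sign, 0.39 (0.19 to 0.59) and 0.68 (0.31 to 1.04), at levels of 149 and 194 CPM and of 39.5 and 63.3 CPM.

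Basement membrane genes leaned the other way. In AT1-rich members 10 of 12 were higher in Dnmt1iECKO, beside 46.8% of all genes, none past 2-fold, with a median log2 ratio of 0.17 and between 0.08 and 0.36 over 13 alternatives. Their sum was 7150 CPM in control and 8160 in Dnmt1iECKO, a log2 ratio of 0.19 (0.13 to 0.25). Col4a4 had 1390 and 1890 CPM, a log2 ratio of 0.45 (0.32 to 0.58), and Col4a5, another chain of the same network, had 548 and 681 CPM, a log2 ratio of 0.31 (0.10 to 0.53). Col4a3 had 1590 and 1690 CPM, with an interval of −0.04 to 0.22. Col4a3 (chromosome 1, 82586921 to 82722059, forward strand) and Col4a4 (82448423 to 82586849, reverse strand) lie head to head. Lama3, the laminin chain of epithelial basement membranes, had a ratio of 0.18 (−0.02 to 0.36), and Npnt, the integrin ligand nephronectin, of 0.20 (−0.02 to 0.41). The 2 genes of the list that were lower were Lamb3, a laminin chain that pairs with Lama3, at 240 and 178 CPM and a log2 ratio of −0.43, and Col4a1, at 652 and 615 CPM and −0.08. In endothelial-bearing members 12 of 15 were higher, beside 47.6% of all genes, with a median log2 ratio of 0.20. Lama3 was lower there, at −0.46 (−0.82 to −0.11). The lean was not limited to members. In AT2 cells 10 of 15 were higher, beside 48.5% of all genes, 3 past 2-fold, with a median log2 ratio of 0.17. Aerocytes had 9 of 13 higher, also beside 48.5% of all genes, 2 past 2-fold, with a median of 0.07.

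Signals from AT1 cells to the vessel and the mesenchyme summed to 8330 and 7600 CPM, with 6 of 10 genes higher and 4 lower, 1 of them past 2-fold. That gene was Igfbp2, which the rule used, and without it the sums were 6660 and 6980 CPM, a log2 ratio of 0.07 (0.00 to 0.13), with 6 of 9 higher. Vegfa, the growth factor that maintains aerocytes, had 2640 and 2650 CPM, a log2 ratio of 0.01 (−0.10 to 0.11). Pdgfa, which acts on alveolar myofibroblasts, had 899 CPM in each library, with an interval of −0.18 to 0.18. Sema3e had 1180 and 1500 CPM, a log2 ratio of 0.35 (0.21 to 0.50) and between 0.17 and 0.50 over 11 alternatives. Fgf18, which acts on the mesenchyme, rested on 88 and 30 UMIs, 114 and 66.1 CPM, with a log2 ratio of −0.79 (−1.44 to −0.18). In endothelial-bearing members Sema3e had 119 and 117 CPM, with an interval of −0.27 to 0.22.

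**Figure D4:**
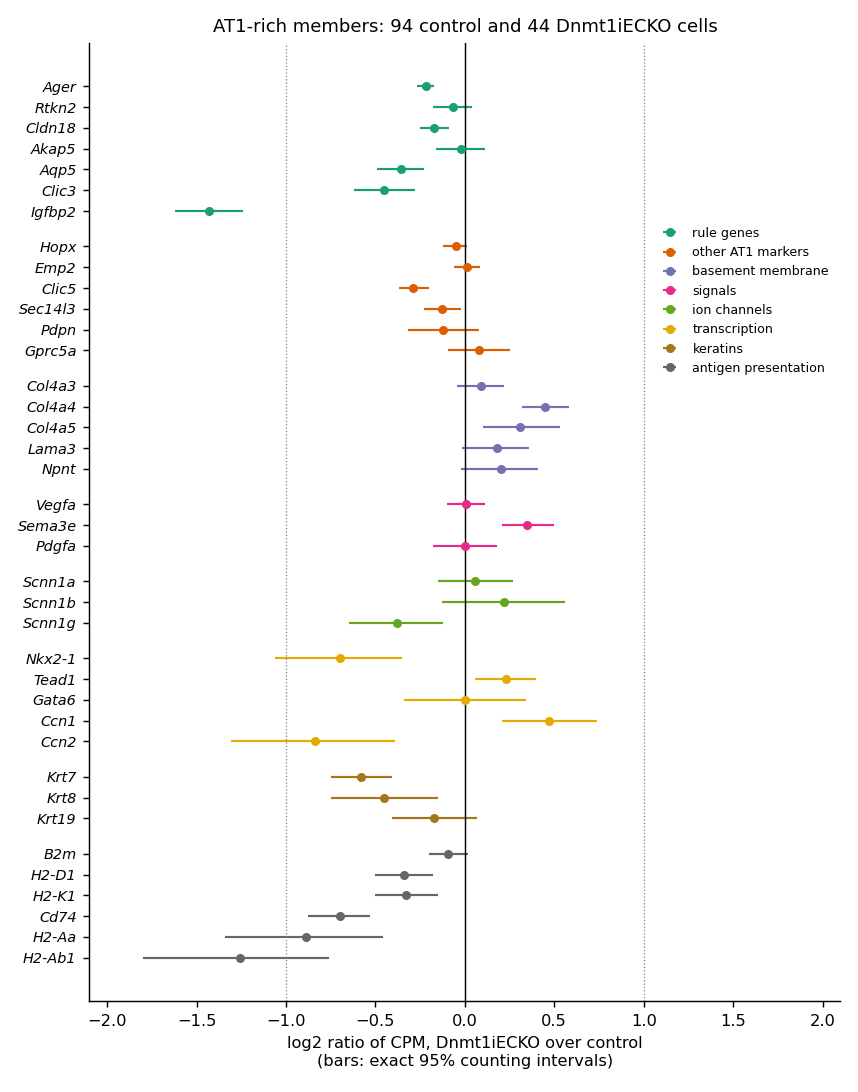
Points give the log2 ratio of CPM, Dnmt1iECKO over control, in AT1-rich members and bars the exact 95% counting interval, by gene group, with 2-fold dotted. Igfbp2 at −1.43 and H2-Ab1 at −1.26 lie past 2-fold on the lower side, and the 5 basement membrane genes drawn lie between 0.09 and 0.45, while Lamb3 and Col4a1, lower at −0.43 and −0.08, are not drawn.

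Genes of water and ion transport summed to 9370 CPM in control and 7700 in Dnmt1iECKO, a log2 ratio of −0.28 (−0.34 to −0.22), with 4 of 10 higher and 6 lower. Aqp5, Clic3 and Clic5, given above, belong to this list, and the first 2 of them were used by the rule. Without these 2 the sums were 6200 and 5290 CPM, a log2 ratio of −0.23 (−0.30 to −0.16), with 4 of 8 higher and 4 lower. Of the 3 subunits of the epithelial sodium channel, Scnn1a had 648 and 674 CPM, Scnn1b 227 and 264 CPM and Scnn1g 493 and 379 CPM. The ratio of Scnn1g was −0.38 (−0.65 to −0.12), while the intervals of Scnn1a (−0.15 to 0.27) and Scnn1b (−0.13 to 0.56) included equal levels. Atp1b1, the beta subunit of the sodium pump, had 115 and 44 UMIs, with 26.1% of the control UMIs from 1 cell.

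Of the genes of caveolae, the flask-shaped membrane pits, 3 of 7 were higher and 4 lower. Cav1, their main coat protein, had 891 and 991 CPM, a log2 ratio of 0.15 (−0.02 to 0.33), and Cav2, its partner, had 569 and 377 CPM, a log2 ratio of −0.59 (−0.86 to −0.34), lower under all 11 alternatives. Cavin1 had 208 and 284 CPM, a log2 ratio of 0.45 (0.11 to 0.80), and Cavin2 had 1980 and 1840 CPM. Genes of epithelial junctions were higher in 4 and lower in 7 of 11, with Cldn18, the claudin of the alveolar barrier, at 4620 and 4120 CPM and Cdh1, the epithelial cadherin, at 345 and 368 CPM. Their sum was 7490 CPM in control and 6820 CPM in Dnmt1iECKO, most of it from Cldn18, a gene of the rule. Without Cldn18 the sums were 2860 and 2700 CPM, a log2 ratio of −0.08 (−0.19 to 0.02).

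Among transcription factors and genes of the Hippo pathway, 5 of 10 were higher and 5 lower, with sums of 9840 and 9700 CPM. Nkx2-1, the factor that holds lung epithelial identity, had 254 and 92 UMIs, 330 and 203 CPM, a log2 ratio of −0.70 (−1.06 to −0.35). It was between −0.75 and −0.44 over 11 alternatives, and its highest cell gave 12.2% of the control and 7.61% of the Dnmt1iECKO UMIs. Tead1, the DNA-binding partner of YAP and TAZ, had 897 and 1050 CPM, a log2 ratio of 0.23 (0.05 to 0.40). Ccn1 and Ccn2, both known YAP target genes, had ratios of opposite sign, 0.47 (0.21 to 0.74) and −0.84 (−1.31 to −0.39). Gata6, an endoderm factor, had 253 CPM in each library.

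AT2 genes were rare in AT1-rich cells. Sftpc had 116 and 22 UMIs in 41.5% and 20.5% of cells, 151 and 48.5 CPM, compared with 145000 CPM in control AT2 cells. Its log2 ratio was −1.64 (−2.36 to −0.97), and 1.23 with rule genes of at least 0.5%. Its highest cell held 18.1% and 22.7% of its UMIs. Sftpc was bounded by the rule, so its level is a description. Sftpd, a surfactant collectin, had 190 and 61 UMIs, of which 1 cell gave 47.9% in control and 93.4% in Dnmt1iECKO. The summed list had 844 and 524 CPM.

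Genes of antigen presentation were mostly lower in Dnmt1iECKO AT1-rich members. Of 8 class I genes, 7 were lower and 1 higher, beside 53.2% of all genes lower, with a median log2 ratio of −0.33 and a sum of 6350 and 5420 CPM. B2m, the light chain of class I, had 2560 and 2400 CPM, with an interval of −0.20 to 0.02. H2-D1 had 1330 and 1050 CPM, a log2 ratio of −0.34 (−0.50 to −0.18), and H2-K1 1120 and 890 CPM, a log2 ratio of −0.33 (−0.50 to −0.15). With rule genes from 0.5% of UMIs upward the order turned, to 0.20 for H2-D1 and 0.38 for H2-K1. H2-K1 and H2-D1 are near-identical in sequence to other class I genes, so reads could be split between them.

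All 4 measured class II genes were lower in Dnmt1iECKO AT1-rich members. Cd74, the invariant chain, had 1290 and 793 CPM, a log2 ratio of −0.70 (−0.88 to −0.53), and H2-Ab1 212 and 88.1 CPM, a log2 ratio of −1.26 (−1.80 to −0.76). A single cell held 42.0% of the control and 62.2% of the Dnmt1iECKO UMIs of Cd74, and 50.3% and 65.0% of those of H2-Ab1. The list's median log2 ratio was −0.98, and it ranged from −2.77 with rule genes of at least 2% to 0.75 with rule genes of at least 0.5%. In endothelial-bearing members, with 1540 and 1470 CPM of Cd74, the list's median was −0.15.

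The lists of interferon and NF-kB genes with at least 100 UMIs had no direction in common. In AT1-rich members 3 of 5 interferon gamma genes and 4 of 7 NF-kB genes were higher, beside 46.8% of all genes. Type I interferon genes were mostly lower, 6 of 7, beside 53.2% of all genes. Their median log2 ratio was −0.22, and between −1.09 and 0.42 over 12 alternatives. Irf1 had 87.0 and 211 CPM and Iigp1, a GTPase induced by interferon gamma, 122 and 463 CPM. One cell held 57.3% of the Dnmt1iECKO UMIs of Irf1 and 73.8% of those of Iigp1. Without droplets that held a Cdh5 UMI the ratios were −0.17 and −0.03. In endothelial-bearing members Irf1 had 1400 and 1390 CPM and Iigp1 1170 and 1170 CPM. Ifi27l2a, an interferon-induced gene below 100 UMIs, had 2 and 34 UMIs in AT1-rich members, a log2 ratio of 4.85 (2.89 to 7.95). It stayed between 1.37 and 4.89 over 11 alternatives. Its ratio was 1.80 in endothelial-bearing members, 2.92 in the remaining members, 0.77 in AT2 cells, 1.55 in aerocytes and 0.28 in T cells. Icam1, an adhesion molecule that AT1 cells carry constitutively, had 1030 and 1060 CPM in AT1-rich members, with an interval of −0.14 to 0.20.

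Immediate early genes, which also respond to tissue dissociation, were higher in sum in Dnmt1iECKO AT1-rich members, at 3440 and 5500 CPM, with 9 of 11 higher and 4 of them past 2-fold, beside 46.8% and 0.989% of all genes. The cell richest in these genes held 30.2% and 41.9% of their UMIs, and without it the sums were 2560 and 3590 CPM. Fos, a subunit of AP-1, had 449 and 1230 CPM, a log2 ratio of 1.45 (1.25 to 1.65), yet a Fos UMI was found in 38.3% of control and 20.5% of Dnmt1iECKO cells. One cell held 42.5% and 41.5% of its UMIs. The list's median of 0.83 was 0.28 without each gene's highest cell and −0.64 without droplets with a Cdh5 UMI. In endothelial-bearing members 16 of 18 were higher, beside 47.6% of all genes, with sums of 19400 and 25200 CPM and a median log2 ratio of 0.38. Fos had 2510 and 3710 CPM there, a log2 ratio of 0.56 (0.52 to 0.61).

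Some genes outside these lists were past 2-fold and rested on many AT1-rich cells. Rpl29 (ENSMUSG00000048758, chromosome 9, 106429454 to 106431568, forward strand), a protein of the large ribosomal subunit, had 303 and 29 UMIs, 393 and 63.9 CPM, a log2 ratio of −2.62 (−3.23 to −2.07). An Rpl29 UMI was found in 79.8% of control and 31.8% of Dnmt1iECKO cells, and after thinning in 58.7% and 6.67%. The ratio was −2.31 in endothelial-bearing members, −2.22 in AT2 cells, −1.96 in aerocytes and −2.24 in T cells, and 0.62 in the remaining members. It was thus found in cells that the Cre driver targets and in cells that it does not. Ribosomal protein genes have many processed pseudogenes, so its counts may be split.

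Poc1a, a centriole protein, had 43 and 81 UMIs, 55.8 and 178 CPM, in 24.5% and 45.5% of AT1-rich cells, a log2 ratio of 1.68 (1.13 to 2.24). Hmgcll1, a lyase of the HMG-CoA type, had 43 and 91 UMIs in 27.7% and 47.7% of cells, a log2 ratio of 1.84 (1.31 to 2.40). Gsta3, a glutathione transferase, had 137 and 22 UMIs in 41.5% and 22.7% of cells, a log2 ratio of −1.88 (−2.60 to −1.22). Each of the 3 stayed past 2-fold under all 11 alternatives. The log2 ratio of Poc1a was also 2.66 (2.14 to 3.19) in endothelial-bearing members, compared with 0.11 (−0.51 to 0.71) in aerocytes and 0.82 (−0.13 to 1.74) in AT2 cells. Hmgcll1 had a ratio of −0.23 (−1.23 to 0.68) in endothelial-bearing members, 0.81 (0.27 to 1.35) in AT2 cells and 0.96 (0.21 to 1.70) in aerocytes. Gsta3 had 0.29 (−0.03 to 0.60) in endothelial-bearing members and 1.27 (1.09 to 1.45) in aerocytes, but −1.38 (−2.11 to −0.73) in AT2 cells and −1.74 (−2.74 to −0.84) in the remaining members. Inmt, a methyltransferase of alveolar fibroblasts that gave AT1-rich cells a fibroblast list sum of 157 and 645 CPM, was different. One Dnmt1iECKO cell held 98.0% of its UMIs, and its log2 ratio of 2.21 was −2.54 without the highest cell of each library.

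Dnmt1 itself (chromosome 9, 20907209 to 20959888, reverse strand) was too rare in AT1-rich cells for a comparison, with 14 and 5 UMIs, 18.2 and 11 CPM, and a log2 ratio of −0.72 (−2.55 to 0.83). Endothelial-bearing members had 46.6 and 24.6 CPM, a log2 ratio of −0.92 (−1.46 to −0.41), beside −1.01 (−1.18 to −0.84) in aerocytes. AT2 cells had 28.3 and 22.9 CPM, with an interval of −0.83 to 0.19.

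Summed over all members, AT1 markers outside the rule were higher in Dnmt1iECKO in 16 of 17 genes, beside 52.2% of all genes. Their median log2 ratio was 0.33, with sums of 10700 and 12500 CPM. Endothelial markers were lower in all 14, beside 47.8% of all genes, with a median of −0.30 and sums of 9050 and 7080 CPM. Within endothelial-bearing members the endothelial sums were 11100 and 10600 CPM, with 6 of 14 higher beside 47.6% of all genes. Within AT1-rich members the AT1 sums were 34300 and 33300 CPM. The share of AT1-rich cells among members was 21.7% in control and 32.4% in Dnmt1iECKO, and its part in these ratios was not tested.

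Markers of other cells moved with some of the sums over all members. Airway epithelial markers summed to 6820 CPM in control and 498 in Dnmt1iECKO, but 1 droplet of each library, in control the one of 72201 UMIs above, held 93.4% and 43.7% of these UMIs. Without both droplets the sums were 456 and 290 CPM, and in AT1-rich members to 579 and 562 CPM. Erythroid markers were lower past 2-fold in 4 of 4 measured genes, beside 1.06% of all genes. Their sums were 652 and 6.52 CPM over all members and 7.79 and 6.61 CPM in AT1-rich members. One control member held 78.1% of the erythroid UMIs, and without the richest member of each library the sums were 144 and 5.66 CPM. Endothelial-bearing members held the erythroid UMIs, with 806 and 7.33 CPM. All 4 measured platelet genes were lower past 2-fold, beside the same 1.06% of all genes. They had 135 and 58.7 CPM in sum, and 124 and 34.4 CPM without the richest member of each library. T and NK cell markers had 0 UMIs in control AT1-rich members, which allows up to 3.9 CPM, and 11 CPM in Dnmt1iECKO, and macrophage markers at 161 and 174 CPM.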

How the data were processed

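The deposited values were UMI counts per gene and cell barcode of 2 libraries of 10x Genomics 3′ single-cell RNA-seq, for which the submitters' processing notes name Cell Ranger and mm10. Barcodes had been filtered to called cells and the counts were not normalized. The labels name more than one kit chemistry.

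From these counts, members were found by the rule above, and UMIs were summed over cells and given as CPM, counts per 1000000 UMIs of the same cells. Intervals are exact Poisson, conditional or Clopper-Pearson ones at 95%. No count test was possible with 1 library per condition. Thinning drew 2000 UMIs per cell without replacement. Doublets were kept, and Scrublet scores were used as an alternative. The named genes were the 7 of the rule, for each of 31 lists the 4 highest members and up to 4 past 2-fold, the 6 highest and 6 lowest ratios, Dnmt1 and Cdh5. Some other list members and the genes past 2-fold in AT1-rich members were added after the values were seen, as were AT1-rich members themselves and every alternative that concerns them. The members and lists were chosen with earlier results of these data known. Positions are from GENCODE on GRCm38. Analysis used Python 3.11.15, numpy 2.4.6, pandas 2.3.3, scipy 1.17.1 and scanpy 1.11.5, and the steps were tested on simulated data.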

Additional observations from a re-analysis of the deposited data

Results flagged for a closer look

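Droplets outside the members also held AT1 genes. Among Ptprc-positive droplets, 30 of 1466 control (2.05%, 1.38 to 2.91) and 27 of 4729 Dnmt1iECKO droplets (0.571%, 0.377 to 0.830) had at least 4 rule genes, and they were deep, with medians of 29144 and 34307 UMIs. The rule genes made up a median of 0.148% and 0.0967% of their UMIs. Among Ptprc-negative cells, 122 control and 48 Dnmt1iECKO droplets had at least 4 rule genes but more than 0.5% Sftpc, at medians of 32557 and 35122 UMIs. All of them met the definition of AT2 cells, so that 86.5% of the control and 92.3% of the Dnmt1iECKO AT2 cells passed the AT1 part of the rule. In thinned control AT2 cells, an Ager UMI was found in 72.3% and one of Rtkn2 in 3.55%, compared with 100% and 92.1% of thinned AT1-rich cells. Ager, Cldn18 and Aqp5 had 805, 856 and 249 CPM in control AT2 cells, whereas Rtkn2, Igfbp2 and Akap5 had 13.4, 10.1 and 60.1 CPM.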

How the results depend on the processing

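The share of AT1 members was lower in Dnmt1iECKO under all 15 alternatives run, though without droplets holding Cdh5 the interval included equal shares, and in AT1-rich members so was Rpl29 under all 11, with the basement membrane list higher under all 13. The log2 ratio of the AT1-rich share lay between −0.67 and 0.05, and counts of genes past 2-fold followed the settings. AT1-rich members number 94 and 44 cells, so genes under about 100 UMIs cannot show small differences. No paired analysis was possible because each condition has 1 library. Of 2640 values of single genes and lists under alternatives, 240 had another sign than the reported value, 70 of them (for 47 genes and lists) where the reported interval excluded equal levels. Some of these are among the 494 that moved beyond their interval, and 12 were of genes or lists past 2-fold or of a summed list. The cause was not tested unless the setting itself gives it.

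The log2 ratio of the share of members was −1.52 with Ptprc-positive cells, −0.29 (−0.80 to 0.20) without droplets holding Cdh5, −1.69 over all cells that passed and −1.24 over cells with no Cdh5 or Pecam1. The share of control members with Cdh5 was 67.3% from 200 genes, 80.2% from 1000 (72.6% in Dnmt1iECKO), 86.1% from 2000 (76.3%), 66.5% with 5 rule genes, 64.7% without the Sftpc limit, 67.7% with markers counted after thinning and 61.2% thinned. The median of AT1 markers over all members was 0.26, 0.25, 0.23, 0.19 and 0.19 with 5 rule genes, without the Sftpc limit, with Ptprc, without Cdh5 droplets and after thinning.

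Over all members, genes 2-fold higher numbered 106 with 5 rule genes, 86 without the Sftpc limit, 297 with Ptprc, 104 after thinning and 108 among genes at least as high as in other cells. Lower genes numbered 189 as means over cells. Higher and lower numbered 52 and 57 without Cdh5 droplets, 614 and 403 from 20 UMIs, 28 and 29 from 300, 514 and 333 at 1.5-fold, and 86 and 174 without each gene's highest cell. With 3 rule genes the log2 ratios of erythroid markers, Hbb-bs and Scgb1a1 turned to 1.41, 1.53 and 2.55.

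In AT1-rich members, chosen after seeing the data, 8 genes were higher with rule genes of at least 2%. Higher and lower numbered 53 and 9 with endothelial UMIs up to 0.4%, 9 and 23 without Cdh5 droplets, 81 and 82 as means over cells, 14 and 30 without the highest cell, 238 and 317 from 20 UMIs, 3 and 2 from 300, and 113 and 130 at 1.5-fold. Sftpc and H2-Ab1 turned to 1.23 and 1.09 with rule genes of at least 0.5%, and Iigp1 to −3.50 at 2%. Without Cdh5 droplets Irf1, Iigp1, Fos and Inmt turned to −0.165, −0.0279, −0.590 and −2.88. Inmt turned to −2.54 without its highest cell, and the summed signals list to 0.0679 without Igfbp2. Values under 2-fold that turned included the medians of class II genes, to 0.75 with rule genes of at least 0.5%, and of immediate early genes, to −0.64 without Cdh5 droplets.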

Other observations

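Of the genes past 2-fold in AT1-rich members, 4 lay close together on chromosome 9 of GRCm38, a pattern noticed after the values had been seen and not tested. Alas1, the first enzyme of heme synthesis (106233455 to 106248654, reverse strand), had 53 and 67 UMIs, a log2 ratio of 1.10. Poc1a (106281061 to 106350521, forward strand) had a ratio of 1.68. Dusp7, a MAP kinase phosphatase (106368632 to 106375724, forward strand), had 125 and 33 UMIs, a ratio of −1.16. Rpl29 (106429454 to 106431568, forward strand) had a ratio of −2.62. The only other genes with at least 100 UMIs in AT1-rich members within 1 Mb of Rpl29 were Parp3 and Manf, with ratios of −0.43 and 0.22. In aerocytes the ratios of Alas1, Poc1a, Dusp7 and Rpl29 were 0.16, 0.11, −0.57 and −1.96, and in T cells −0.57, 0.73, −0.94 and −2.24. In AT2 cells they were 0.83, 0.82, 0.15 and −2.22, with an interval of 0.58 to 1.07 for Alas1. Over all members the same ratios were 0.68, 2.27, −0.54 and −1.12. Over chromosome 9 as a whole, 5 of 137 genes (3.65%) were past 2-fold, compared with 38 of 2322 genes (1.64%) with a position on the genome. Chromosome 18 had 3 of 70 genes (4.29%) and chromosomes 17 and 1 had 3.51% and 3.33%. Shares over whole chromosomes cannot show whether 4 genes this close together are unusual, and that was not tested. The other gene of the 5 on chromosome 9 was Hmgcll1. Dnmt1 is on the same chromosome but far from the 4 genes, at 20907209 to 20959888, and a link was not tested.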
